A study of Mus musculus with 5 samples.

Results

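The colony-stimulating factor ligands and receptors described here are 7 genes, the ligands Csf1, Il34 and Csf2 and the receptor genes Csf1r, Csf2ra, Csf2rb and Csf3r. They were chosen by name as gene columns present in both count tables, and they are 7 of the 26189 genes measured. CSF-1 (macrophage colony-stimulating factor, from Csf1) and IL-34 (from Il34) are separate ligands of one receptor tyrosine kinase, CSF1R, on which many tissue macrophages depend for survival and proliferation. GM-CSF (from Csf2) signals through a ligand-binding alpha chain, Csf2ra, and a beta chain, Csf2rb, that also serves the receptors for IL-3 and IL-5, while G-CSF acts on neutrophils and their precursors through Csf3r. In atherosclerotic arteries CSF-1 is known from stromal cells of the vessel wall and acts on monocytes and macrophages, and GM-CSF acts on macrophages and dendritic cells.

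The cells came from the aortic arch of female mice, given as 12 weeks old, that had received 1 intraperitoneal injection of a viral vector to induce atherosclerosis and then a Western diet for 18 weeks. The vector and the diet were common to both genotypes, wild-type C57BL/6J and C57BL/6N-Saa3tm1.1(KOMP)Vlcg/MbpMmucd, which lacks serum amyloid A3 (Saa3-/-). The design text calls the animals littermates, whereas the genotype labels name different C57BL/6 substrains. Live CD45+ cells were sorted, tagged by genotype and captured together with BD Rhapsody, so the series holds 1 pool of cells per genotype, and how many mice each pool holds is not given in the sources used here.

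Saa3 itself gave 1079 molecules in the pool labelled wild-type, or 148 CPM (counts per 1000000 molecules of the same cells), and 1268 molecules, or 242 CPM, in the pool labelled Saa3-/-. The gene named as deleted was thus counted at a higher level under the Saa3-/- label, and the link of each tag to a genotype rests on the names of the deposited tables. Every direction between pools below is therefore a direction between labels. The pool labelled wild-type kept 833 cells and 7289593 molecules with a median of 6415 molecules per cell, and the pool labelled Saa3-/- kept 823 cells and 5231922 molecules with a median of 4698. The pools shared 0 cell barcodes. A cell was placed in the type with the largest share of its marker genes high for its depth, which gated 1381 of the 1656 cells. The names of the 14 types end in "-like" because they rest on these markers alone, and the markers' own levels in the gated cells are fixed by the gate. With 1 pool per genotype no difference between pools could be tested. Intervals are exact 95% intervals and cover counting error only, not the spread between cells or between mice.

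The promoters of 1 ligand and 2 receptor genes are shown because the cells in which these 3 genes were highest differ, fibroblast-like and neutrophil-like cells for Csf1, neutrophil-like, monocyte-like, dendritic-cell-like and macrophage-like cells for Csf2ra and neutrophil-like cells alone for Csf3r. The sequences are from RefSeq on GRCm38, 5′ to 3′ on the gene's own strand, and end at the base before the annotated gene. They cover chr3:107760470-107760719 (minus strand) for Csf1, chr19:61228430-61228668 (minus strand) for Csf2ra and chr4:126024409-126024549 (plus strand) for Csf3r. Capitals mark AGGAA, the core of the sites bound by ETS factors such as the myeloid factor PU.1, read on either strand (TTCCT on the other), and TGACGTCA, the palindromic cyclic AMP response element.
Csf1: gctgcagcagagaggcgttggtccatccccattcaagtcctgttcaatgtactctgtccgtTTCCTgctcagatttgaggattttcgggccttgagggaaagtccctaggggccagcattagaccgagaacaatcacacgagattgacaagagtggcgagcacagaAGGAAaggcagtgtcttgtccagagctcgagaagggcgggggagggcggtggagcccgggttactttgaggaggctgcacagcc
Csf2ra: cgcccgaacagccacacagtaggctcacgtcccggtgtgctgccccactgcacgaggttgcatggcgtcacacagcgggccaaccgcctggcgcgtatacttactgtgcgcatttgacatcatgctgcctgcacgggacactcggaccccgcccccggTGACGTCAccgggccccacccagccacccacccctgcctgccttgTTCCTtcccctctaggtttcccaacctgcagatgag
Csf3r: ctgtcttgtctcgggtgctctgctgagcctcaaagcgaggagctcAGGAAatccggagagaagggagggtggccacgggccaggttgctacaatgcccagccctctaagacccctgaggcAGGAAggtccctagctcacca
AGGAA occurred 2 times before Csf1, 1 time before Csf2ra and 2 times before Csf3r. The same letters occur in 60.3%, 58.7% and 41.7% of the 32851 RefSeq promoters cut to the same 250, 239 and 141 bases, so their presence is common. TGACGTCA occurred only before Csf2ra among the 3, 1 time, and is found in 1.42% of promoters of that length. The longer GAGGAA occurred in none of the 3 and in 23.3%, 22.1% and 14.0% of promoters of those lengths. The motifs do not overlap each other in these windows, they were chosen after the sequences were seen, and a match describes letters, not binding.

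On GRCm38 the ligand genes lie on chromosome 3 (Csf1, 107741048 to 107760469, minus strand), chromosome 8 (Il34, 110741829 to 110805924, minus strand) and chromosome 11 (Csf2, 54247271 to 54249667, minus strand). The receptor genes lie on chromosome 18 (Csf1r, 61100598 to 61132149, plus strand), chromosome 19 (Csf2ra, 61223957 to 61228429, minus strand), chromosome 15 (Csf2rb, 78325752 to 78353847, plus strand) and chromosome 4 (Csf3r, 126024550 to 126044440, plus strand). All 7 are annotated as protein-coding. Genes on the opposite strand overlap Il34 (Gm15894 and Gm15895), Csf2 (Gm12223) and Csf1r (Hmgxb3). Whether the counting used strand is not given in the sources used here, so reads of these pairs may not be separated. Of the 50-base stretches of Csf2rb transcripts, 12.3% also occur in another gene, nearly all in Csf2rb2, which encodes the mouse beta chain specific for IL-3, and for Csf3r the share is 10.5%. These are shares of sequence, and how far they make the counts of Csf2rb and Csf3r uncertain was not measured.

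**Figure D1:**
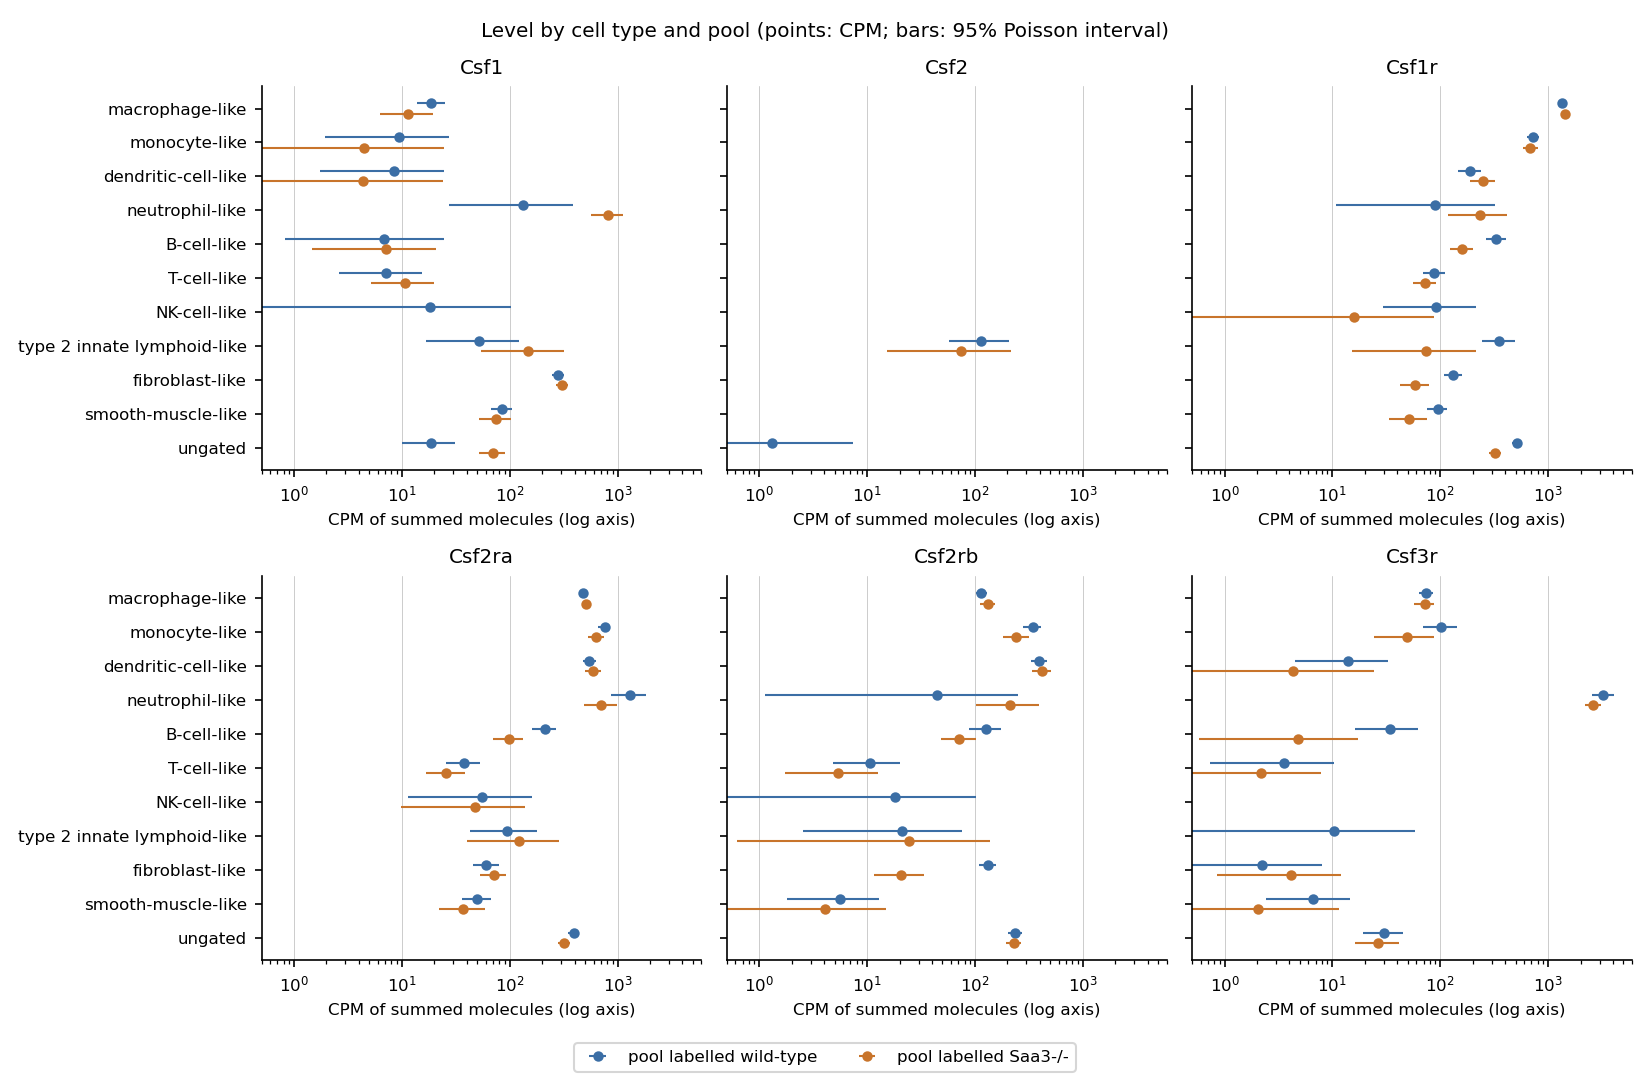
Level of 6 of the genes (CPM of summed molecules, log axis) in each cell type with at least 20 cells and in ungated cells, for the pools labelled wild-type (blue) and Saa3-/- (orange). Points are CPM, bars are exact 95% Poisson intervals, types with 0 molecules have no point and Il34, with 20 molecules in all, is not drawn. Csf1 stands highest in fibroblast-like cells under the wild-type label and in neutrophil-like cells under the Saa3-/- label. Csf1r is highest in macrophage-like cells and Csf3r in neutrophil-like cells.

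Csf1, the gene of the main CSF1R ligand, was carried mostly by stromal cells. The fibroblast-like cells under the wild-type label held 251 molecules, 281 CPM (247 to 318), with at least 1 molecule in 54 of 77 cells. Those of the pool labelled Saa3-/- held 225 molecules, 307 CPM (268 to 350), in 43 of 65 cells. The median fibroblast-like cell had 2 Csf1 molecules in each pool, and the pools' intervals overlapped. The log2 ratio of the pools (Saa3-/- over wild-type, here and below) was 0.13 (-0.14 to 0.39). A single cell of the pool labelled Saa3-/- held 74 molecules, 32.9% of the type's total there, against a highest cell of 15 in the other pool. Without the highest cell of each pool the levels were 271 CPM in the pool labelled wild-type and 218 in the pool labelled Saa3-/-, and the log2 ratio was -0.31. Over 9 alternative settings the ratio ran from -0.31 to 0.57 and was positive in 6, so it had no fixed sign. Smooth-muscle-like cells, the contractile cells of the media, held 84.4 CPM (66.5 to 106) in the pool labelled wild-type and 73.9 CPM (51.8 to 102) in the pool labelled Saa3-/-, with Csf1 in 38 of 106 and 21 of 66 cells. Over both pools Csf1 was 3.63-fold higher in fibroblast-like than in smooth-muscle-like cells (log2 1.86, 1.56 to 2.17). Set against T-cell-like cells, which are not known as a main source and give a measure of free RNA, it was 32.5-fold higher in fibroblast-like cells and 8.96-fold higher in smooth-muscle-like cells.

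Of the 760 Csf1 molecules in gated cells, 588, or 77.4% (74.2 to 80.3), lay in fibroblast-like and smooth-muscle-like cells, which held 27.3% of all molecules. The share was 80.3% (76.1 to 84.1) in the pool labelled wild-type and 73.9% (69.0 to 78.4) in the pool labelled Saa3-/-. Over 7 alternative settings it ran from 76.8% to 82.0% under the wild-type label and from 51.7% to 77.5% under the Saa3-/- label. In the pool labelled Saa3-/- 1 fibroblast-like cell held 74 of the 261 stromal molecules. The cells had been sorted on CD45, and Ptprc, which encodes CD45, stood at 110 CPM in fibroblast-like and 113 CPM in smooth-muscle-like cells against 803 CPM in macrophage-like and 1373 CPM in T-cell-like cells. These shares therefore describe the sorted cells rather than the vessel wall.

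**Figure D2:**
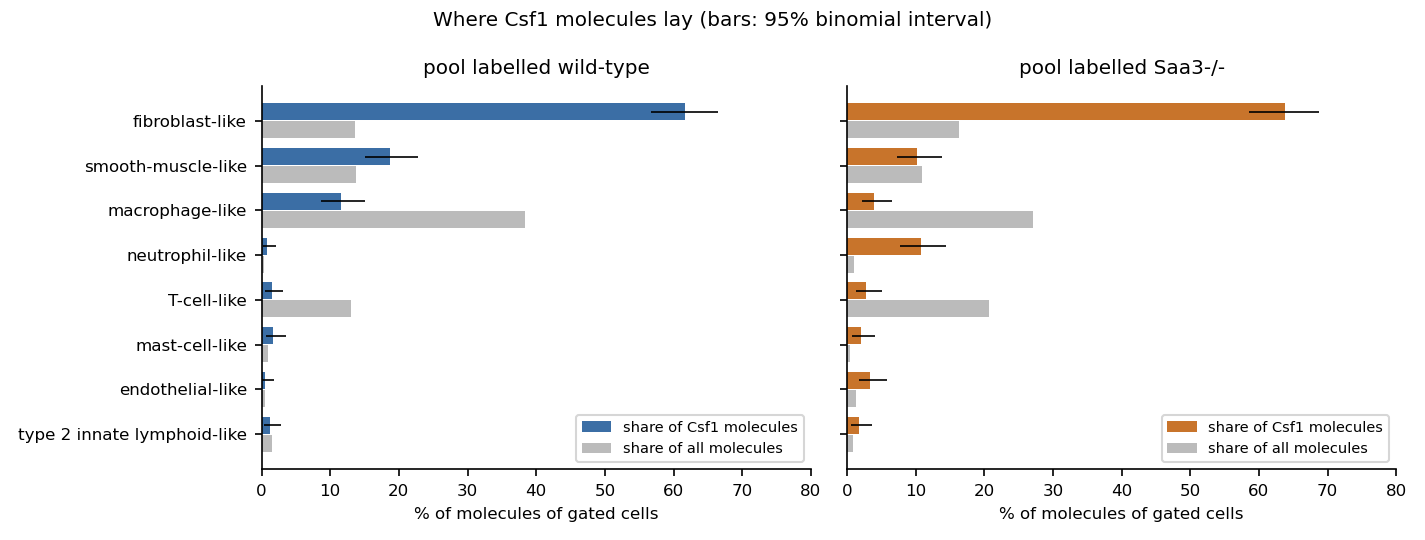
Share of the Csf1 molecules of gated cells (percent) held by each of 8 cell types in the pools labelled wild-type (blue) and Saa3-/- (orange), with 95% binomial intervals, beside the type's share of all molecules (grey). Fibroblast-like cells hold 61.7% and 63.7%, smooth-muscle-like cells 18.7% and 10.2%, macrophage-like cells 11.5% and 3.97% and neutrophil-like cells 0.737% and 10.8%.

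Neutrophil-like cells also carried Csf1, at unequal levels under the 2 labels. In the pool labelled wild-type 2 of 8 cells held 3 molecules, 134 CPM (27.5 to 390), with 1 and 2 molecules in the positive cells. In the pool labelled Saa3-/- 9 of 15 cells held 38 molecules, 810 CPM (573 to 1112), with between 1 and 16 molecules in the positive cells. The per-cell counts overlapped, since 6 cells of each pool had 0. The log2 ratio was 2.60 (0.94 to 4.94), and over 9 alternative settings it ran from 1.89 with a gate that asks for 1 marker more to 3.27 without the highest cells. The 41 molecules were below the 50 that a call required, a call being a difference of 1 or more on the log2 scale, in either direction, on at least 50 molecules. Without the highest cell of each pool the levels were 51.9 CPM in the pool labelled wild-type and 501 CPM in the pool labelled Saa3-/-. None of the 23 neutrophil-like cells passed the gate of another type, and the summed fibroblast markers in them stood at 1157 CPM in the pool labelled wild-type, with 6 of 7 markers found, and at 1300 CPM in the pool labelled Saa3-/-, with 7 of 7 found. Over both pools Csf1 was higher in neutrophil-like than in fibroblast-like cells by 1.01 on the log2 scale (0.52 to 1.47), a comparison that rests on the cells of the pool labelled Saa3-/-.

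Macrophage-like cells held little Csf1. The level was 18.7 CPM (13.8 to 24.9) in the pool labelled wild-type, with 32 of 200 cells positive, and 11.5 CPM (6.29 to 19.3) in the pool labelled Saa3-/-, with 12 of 139 positive. The T-cell-like background was 7.07 CPM in the pool labelled wild-type and 10.8 CPM in the pool labelled Saa3-/-, within the interval of the macrophage-like cells under that label. The log2 ratio of the pools was -0.70 (-1.68 to 0.18), and 0.95 where cells were typed by cluster, so its sign depends on the typing. Of the 47 molecules under the wild-type label 24 lay in the lipid-laden group, the cells with Trem2, Gpnmb and related genes of foam cells high. These gave 48.8 CPM (31.3 to 72.7) in 10 of 32 cells, against 8 molecules, 17.9 CPM (7.74 to 35.3), in the pool labelled Saa3-/-, and 1 cell alone had 10 of the 24. A macrophage-like cell with both the ligand and its receptor counted was uncommon, as Csf1 and Csf1r were found together in 44 of 339 cells. Mast-cell-like cells gave 7 Csf1 molecules in each pool, all of them in cells that also passed the gate of another type. Type 2 innate lymphoid-like cells gave 5 and 6 molecules. Endothelial-like cells gave 2 and 12, and 1 cell alone held 10 of the 12. Over both pools mast-cell-like (9 cells) and endothelial-like cells (11 cells) each held 1.84% of the Csf1 molecules in gated cells. Their shares of all molecules were 0.702% and 0.822%. By level both types thus stood above smooth-muscle-like cells (14.7% beside 12.6%), on 14 molecules each.

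Il34, the other CSF1R ligand gene, known chiefly from skin and brain, was close to the limit of detection. The pool labelled wild-type had 14 molecules in 14 of 833 cells and the pool labelled Saa3-/- had 6 molecules in 5 of 823 cells, with no cell above 2. Macrophage-like cells held 7 of the 14 and 1 of the 6. Fibroblast-like cells held 1 and 2, and smooth-muscle-like cells 2 and 0. Monocyte-like, dendritic-cell-like and neutrophil-like cells held 0. No cell type can be named as its source at this depth.

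Csf2, which encodes GM-CSF, was nearly limited to type 2 innate lymphoid-like cells, tissue lymphocytes known for IL-5 and IL-13. In the pool labelled wild-type 6 of 21 such cells held 11 molecules, 115 CPM (57.2 to 205), with 1 molecule in 4 cells and 3 and 4 in the others. In the pool labelled Saa3-/- 2 of 11 held 3 molecules, 73.5 CPM (15.2 to 215). The intervals overlap widely. These cells held 14 of the 16 Csf2 molecules of gated cells, 87.5% (61.7 to 98.4), and the other 2 lay in mast-cell-like cells, 1 in each pool. Over 7 alternative settings the share ran from 71.4% to 100%. A further molecule lay in an ungated cell. None of the 347 T-cell-like and 339 macrophage-like cells had a Csf2 molecule. A limit of 3 cells allows up to 0.865% and 0.885% of them with a counted molecule, which does not limit the share of cells that express the gene. Of the 32 type 2 innate lymphoid-like cells, 17 had just the number of markers the gate asked for, so the type is thinly defined. Il5 was found in 21.9% and Il13 in 3.1% of them. The T-cell markers summed in them to 761 CPM under the wild-type label (6 of 6 found) and 1201 CPM under the Saa3-/- label (3 of 6 found). Only 1 of the 32 passed the gate of another type, and whether some are T cells was not tested.

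**Figure D3:**
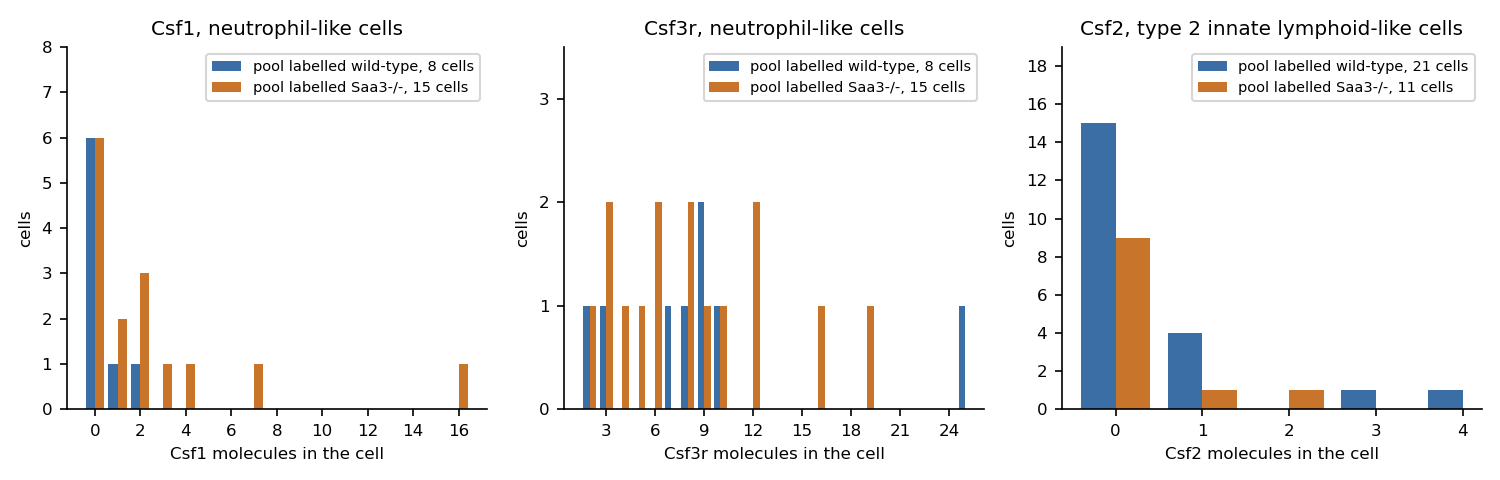
Number of cells (vertical axis) by molecules in the cell (horizontal axis) for Csf1 and Csf3r in neutrophil-like cells and Csf2 in type 2 innate lymphoid-like cells, for the pools labelled wild-type and Saa3-/-. Csf1 is at 0 in 6 cells of each pool and reaches 16 under the Saa3-/- label, Csf3r is at 2 or more in every cell, and 8 of 32 cells hold Csf2.

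Csf1r was found in nearly every macrophage-like cell of both pools. The pool labelled wild-type had 3352 molecules, 1335 CPM (1290.2 to 1381), with 199 of 200 cells positive, and the pool labelled Saa3-/- had 1743 molecules, 1433 CPM (1367 to 1502), with 137 of 139 positive. Cells of the pool labelled wild-type had a median of 14 molecules and at most 69, and those of the pool labelled Saa3-/- a median of 11 and at most 70, beside median totals of 10198 and 6978 molecules per cell. The log2 ratio of the pools was 0.10 (0.02 to 0.19). Thinned to 2000 molecules per cell, 89.8% of macrophage-like cells in either pool had Csf1r, against 9.09% and 11.1% of T-cell-like cells, which should lack it.

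Among macrophage-like, monocyte-like and dendritic-cell-like cells Csf1r fell in that order. Monocyte-like cells stood at 723 CPM (633 to 823) in the pool labelled wild-type and 687 CPM in the pool labelled Saa3-/- (log2 ratio -0.07, -0.38 to 0.23). Dendritic-cell-like cells stood at 190 and 247 CPM (0.38, -0.15 to 0.91), a ratio that was -0.25 on thinned cells and 1.01 with a gate that asks for 1 marker more. T-cell-like cells stood at 88.4 and 72.2 CPM. The 9 mast-cell-like cells held 59 and 1 Csf1r molecules and the 7 plasma-cell-like cells 72 and 0. Over both pools these 2 types stood above dendritic-cell-like cells by level, but 6 cells of each also passed the gate of another type. Over both pools macrophage-like cells exceeded monocyte-like cells 1.93-fold (log2 0.95, 0.80 to 1.10), and monocyte-like cells exceeded dendritic-cell-like cells 3.33-fold (log2 1.74). The level in macrophage-like cells was 11.1-fold that of T-cell-like and B-cell-like cells together (log2 3.47, 3.31 to 3.65), and the log2 value was 4.09 without cells that passed the gate of another type.

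Among the 3 groups of macrophage-like cells Csf1r lay highest in resident cells under both labels. Lipid-laden cells stood close to the remaining cells under the wild-type label and below them under the Saa3-/- label. Resident macrophage-like cells, with Lyve1, Folr2 and related genes high, held 1349 molecules, 1530 CPM (1449.9 to 1614), in 67 cells under the wild-type label. They held 612 molecules, 2105 CPM (1941 to 2278), in 36 cells of the pool labelled Saa3-/-. Lipid-laden macrophage-like cells held 599 molecules, 1219 CPM (1123 to 1320.4), in 32 cells under the wild-type label and 360 molecules, 807 CPM (726 to 895), in 33 cells of the pool labelled Saa3-/-. The remaining cells stood at 1234 CPM in the pool labelled wild-type and 1608 CPM in the pool labelled Saa3-/-. The log2 ratio of the pools was 0.46 (0.32 to 0.60) in resident, 0.38 (0.25 to 0.51) in remaining and -0.59 (-0.79 to -0.40) in lipid-laden cells. Whether these ratios differ beyond the spread between mice was not tested. Over the 8 alternative settings the ratio ran from 0.38 to 0.67 in resident cells and from -0.81 to -0.57 in lipid-laden cells.

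By medians over single cells, resident cells stood at 1518 CPM in the pool labelled wild-type and 2253 CPM in the pool labelled Saa3-/-, remaining cells at 1187 and 1573 CPM and lipid-laden cells at 1225 and 743 CPM. Resident exceeded lipid-laden cells by 0.33 (0.19 to 0.47) on the log2 scale in the pool labelled wild-type and by 1.38 (1.19 to 1.57) in the pool labelled Saa3-/-. In that comparison 0 of 4 members were called under the wild-type label, where 11.2% of genes were. Under the Saa3-/- label Csf1r was the 1 member of 3 called, in the higher direction, where 18.1% of genes were called and 9.68% were called higher. Median totals per cell were 10694 and 6497 molecules in resident and 12790 and 10454 in lipid-laden cells of the pools labelled wild-type and Saa3-/-, and their part in the result was not tested. Of the resident cells 34 of 103, and of the lipid-laden cells 24 of 65, had just the number of markers the gate asked for.

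**Figure D4:**
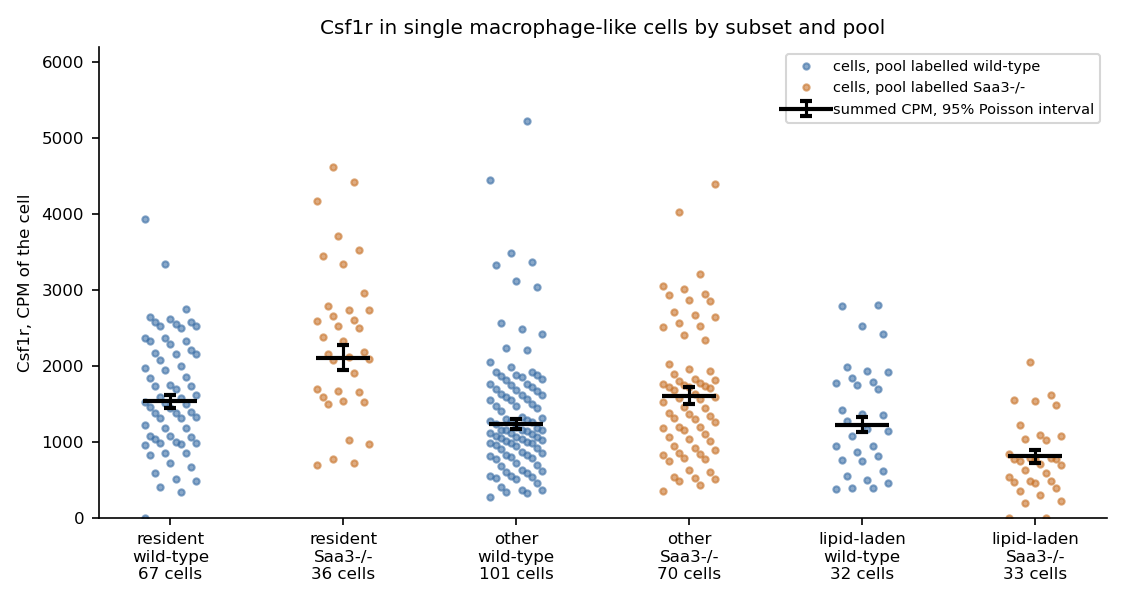
Csf1r level of single macrophage-like cells (CPM of the cell's molecules) in the resident, lipid-laden and remaining groups, for the pools labelled wild-type and Saa3-/-, with black bars for the CPM of summed molecules and its 95% Poisson interval. The bars stand at 1530 and 2105 in resident, 1234 and 1608 in remaining (other) and 1219 and 807 in lipid-laden cells, and the cells of all groups overlap.

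Csf2ra, the GM-CSF-binding chain, was spread over neutrophil-like, monocyte-like, dendritic-cell-like and macrophage-like cells, while the 9 mast-cell-like cells held 6 molecules (77.6 CPM). Neutrophil-like cells held 29 molecules, 1291 CPM (864 to 1854), in 8 of 8 cells under the wild-type label and 33 molecules, 703 CPM (484 to 988), in 14 of 15 cells of the pool labelled Saa3-/-. Monocyte-like cells stood at 758 and 629 CPM, dendritic-cell-like cells at 547 and 594 CPM and macrophage-like cells at 478 (451 to 505) and 515 CPM (475 to 557), each with the pool labelled wild-type first. T-cell-like cells stood at 37.7 and 25.9 CPM. Over both pools the order was neutrophil-like (894), monocyte-like (704), dendritic-cell-like (566) and macrophage-like (490 CPM). The neighbours neutrophil-like and monocyte-like were not separated by counting error (log2 0.34, -0.07 to 0.73). Monocyte-like exceeded dendritic-cell-like cells by 0.32 (0.10 to 0.53), and dendritic-cell-like exceeded macrophage-like cells by 0.21 (0.04 to 0.38). The gap of monocyte-like over dendritic-cell-like cells lay mostly under the wild-type label (758 against 547 CPM) and was small under the Saa3-/- label (629 against 594 CPM). Between the pools the log2 ratio was 0.11 (-0.03 to 0.25) in macrophage-like, -0.27 (-0.58 to 0.04) in monocyte-like, 0.12 (-0.21 to 0.44) in dendritic-cell-like and -0.88 (-1.64 to -0.10) in neutrophil-like cells. In neutrophil-like cells TMM scaling has a log2 factor of -0.31, which shifts every ratio there upwards by that amount, beside a median log2 ratio of 0.09 over the 225 genes tested before scaling.

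Csf2rb, the beta chain, was highest in dendritic-cell-like cells. It stood there at 394 CPM (331 to 464), in 24 of 31 cells, in the pool labelled wild-type and at 417 CPM (337 to 509), in 15 of 23 cells, in the pool labelled Saa3-/-. Monocyte-like cells held 343 and 241 CPM (log2 ratio -0.51, -1.01 to -0.03). Macrophage-like cells held 115 CPM (102 to 129) with 102 of 200 cells positive and 132 CPM (112 to 154) with 64 of 139 positive. Over both pools dendritic-cell-like cells exceeded macrophage-like cells 3.35-fold (log2 1.74, 1.51 to 1.97), and within the pools the log2 ratio was 1.78 and 1.66. They exceeded monocyte-like cells by 0.42 (0.13 to 0.72). Of the dendritic-cell-like cells 27 of 54, and of the monocyte-like cells 30 of 68, had just the number of markers the gate asked for. The log2 ratio of the pools in dendritic-cell-like cells was 0.08, and it had no fixed sign over the alternative settings, which gave -0.44 to 0.59. T-cell-like cells stood at 10.6 and 5.39 CPM. Within macrophage-like cells Csf2rb lay lower in resident than in lipid-laden cells, at 72.6 against 140 CPM in the pool labelled wild-type and 103 against 150 CPM in the pool labelled Saa3-/-. This is the opposite order to Csf1r, which lay higher in resident cells of both pools. Under the Saa3-/- label the order of Csf2rb was not separated by counting error (log2 -0.54, -1.21 to 0.10) and was 0.03 on thinned cells.

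Both chains of the GM-CSF receptor were counted in the same cell in 38 of 54 dendritic-cell-like (70.4%), 43 of 68 monocyte-like (63.2%), 155 of 339 macrophage-like (45.7%) and 5 of 23 neutrophil-like cells (21.7%). The corresponding count was 3 of 347 in T-cell-like cells. These types differ in depth, with median totals of 9630, 6403, 8107 and 2796 molecules per cell in the order given, and its part in the result was not tested.

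Csf3r, the G-CSF receptor gene, was present in all 23 neutrophil-like cells. The 8 cells under the wild-type label held 73 molecules, 3249 CPM (2547 to 4086), with between 2 and 25 per cell and a median of 8.5. The 15 cells of the pool labelled Saa3-/- held 123 molecules, 2622 CPM (2179 to 3128), with between 2 and 19 per cell and a median of 8. The cells of the pools overlapped over nearly the whole range and the log2 ratio was -0.31 (-0.74 to 0.13). Macrophage-like cells held 73.7 and 71.5 CPM, monocyte-like cells 101 and 49.1 CPM on 32 and 11 molecules, and T-cell-like cells 3.54 and 2.16 CPM. Over both pools neutrophil-like cells exceeded macrophage-like cells 38.7-fold (log2 5.27, 5.00 to 5.54) and monocyte-like cells 35.6-fold.

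Read across the members, few passed the call between the pools. In macrophage-like cells 0 of the 5 members with at least 50 molecules did, where 1.87% of 7645 genes were called, and the members' median log2 ratio was 0.10 against 0.02 over all genes. The counts were 0 of 3 in monocyte-like cells (6% of genes called), 0 of 3 in dendritic-cell-like cells (6.18%), 0 of 2 in neutrophil-like cells (7.11%), 0 of 3 in smooth-muscle-like cells (1.95%) and 0 of 2 in T-cell-like cells (3.4%). They were also 0 in the resident, lipid-laden and remaining macrophage-like cells, where 4.32%, 5.2% and 3.36% of genes were called. Calls were made in fibroblast-like cells, where 2 of 4 members were called, both lower (4.27% of genes called, 1.9% lower), and in B-cell-like cells, where 2 of 3 were called, both lower (7.89% called, 4.42% lower).

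The calls in fibroblast-like cells were Csf2rb and Csf1r, receptors of myeloid cells. Csf2rb was at 117 molecules, 131 CPM, in the pool labelled wild-type and 15 molecules, 20.5 CPM, in the pool labelled Saa3-/- (log2 ratio -2.68, -3.56 to -1.90). It was positive in 13 of 77 and 12 of 65 cells, and 1 cell alone held 74 of the 117 molecules. Without the highest cell of each pool the levels were 49.4 and 18.2 CPM and the ratio was -1.44. Csf1r was at 132 and 58.7 CPM (-1.17, -1.71 to -0.66), and without the highest cells its ratio of -0.99 was no longer a call, nor was the -0.62 found on thinned cells. The macrophage markers summed to 935 CPM in fibroblast-like cells under the wild-type label and 539 CPM in those of the pool labelled Saa3-/-, with 7 of 7 markers found and 0 at 0 in each, and their part in the result was not tested.

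In B-cell-like cells Csf1r stood at 331 and 160 CPM (-1.05, -1.52 to -0.59), and Csf2ra was called lower as well (-1.11, -1.72 to -0.52). Under the wild-type label the highest cell held 45 of the 97 Csf1r molecules, and the highest cell for Csf2ra held 31 of 62. Among B-cell-like cells 14 of 48 and 22 of 102 also passed the gate of another type. Without those cells Csf1r stood at 74.7 CPM in the pool labelled wild-type and 101 CPM in the pool labelled Saa3-/-, so the order of the labels turned. For Csf2ra the order turned where cells were typed by cluster (log2 ratio 0.87).

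**Figure D5:**
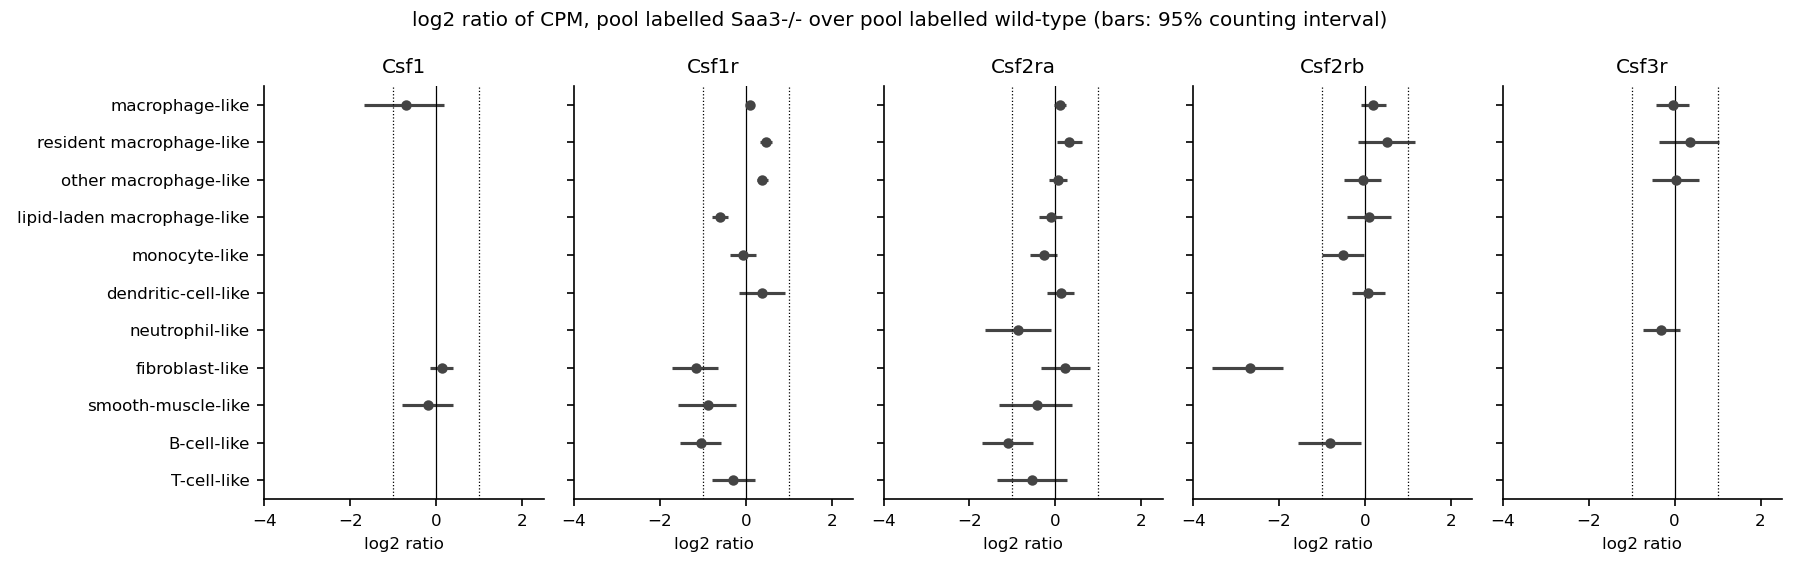
Log2 ratio of CPM (Saa3-/- over wild-type label) for each member with at least 50 molecules over both pools, by cell type, with 95% counting intervals and the thresholds of a call at 1 and -1. Csf1r, Csf2ra and Csf2rb lie between the thresholds in macrophage-like, monocyte-like and dendritic-cell-like cells, and the points below -1 are in fibroblast-like and B-cell-like cells.

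The wider pathway was read from a list of 49 genes, of which 48 were in the tables. In macrophage-like cells 37 had at least 50 molecules, 1 was called higher, 0 were called lower, and the median log2 ratio was 0.03 against 0.02 over all genes. The gene called was Mmp12, a macrophage elastase known to respond to GM-CSF, at 131 CPM in the pool labelled wild-type and 320 CPM in the pool labelled Saa3-/- (log2 ratio 1.29, 1.08 to 1.51). The ratio lay between 1.21 and 1.42 under 9 alternatives. Lipid-laden cells made up 32 of 200 macrophage-like cells under the wild-type label and 33 of 139 under the Saa3-/- label, and their part in the result was not tested. All 14 signalling genes (Jak2, Stat5a, Stat5b, Lyn and others) and all 10 transcription factors (Spi1, Cebpa, Irf8 and others) had enough molecules and none was called, with medians of 0.01 and -0.03. In dendritic-cell-like cells, where 6.18% of genes were called, 2 of 21 were called higher and 0 lower, the chemokine gene Ccl17 (101 and 260 CPM) and the transcription factor gene Cebpb (94.9 and 200 CPM). The Cebpb log2 ratio of 1.07 was -0.64 without the highest cells, and that of Ccl17, 1.37, was 0.96, no longer a call, with a gate that asks for 1 marker more. In fibroblast-like cells (4.27% of genes called) 1 of 25 was called lower, the feedback inhibitor gene Socs3 (343 and 169 CPM), whose log2 ratio of -1.02 was -0.89 where cells were typed by cluster, no longer a call. In smooth-muscle-like cells (1.95%) 1 of 14 was called lower, Ptprz1 (263 and 127 CPM), which encodes a phosphatase receptor known to bind IL-34. In B-cell-like cells (7.89%) 2 of 19 were called lower. These were Tyrobp, a signalling adaptor (413 and 205 CPM), whose log2 ratio of -1.01 was 0.81 where cells were typed by cluster and -0.30, no longer a call, at equal depth, and the chemokine gene Ccl22 (358 and 16.7 CPM), for which 3 of the 9 alternatives, among them leaving out the highest cell of each pool, gave no ratio because at least 1 pool then had 0 molecules. In T-cell-like cells (3.4%) 2 of 25 were called lower, the kinase gene Lyn (60.1 and 28.0 CPM) and the feedback gene Spry2 (40.1 and 17.3 CPM), with log2 ratios of -1.10 and -1.22 that were -0.64 and -0.30, no longer calls, where cells were typed by cluster. The genes named outside macrophage-like cells were picked after their values were seen.

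The genes whose level followed each member most closely over the 10 cell types with at least 20 cells were found among 7524 genes by Pearson's r of log2(CPM + 10), as a description. The types share the 2 pools, the gate and the free RNA of the capture. Csf1 was followed by Lcn2 (r = 0.89), which encodes lipocalin 2, Pld1 (0.89) and Dhrs7 (0.88). Csf1r was followed by Dram2 (0.95), Pgap2 (0.95) and Clec4a3 (0.93). For Csf2ra the genes were Alox5ap (0.995), needed for leukotriene synthesis, the PU.1 gene Spi1 (0.97) and Mpeg1 (0.97). For Csf2rb they were Gm2a (0.94), its neighbour Csf2rb2 (0.93), with which it shares sequence, and Tgfbi (0.92). For Csf3r they were Cd300lb (0.98), Clec4d (0.98) and Cd33 (0.97), all receptors of myeloid cells.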

How the data were processed

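Per the file headers, the deposited tables hold counts of molecules (unique molecular identifiers) per cell, made with the BD Rhapsody WTA Analysis Pipeline 1.11.1 on GRCm38 with intronic reads included. The submitters' processing notes also name R 4.3.1, Seurat 4.3.0 and mm10. The deposited tag table gives a call per cell (of 2401 putative cells, 11 multiplet and 647 undetermined), and 1743 of 1743 cells of the count tables carry the matching call. Removing the 87 cells with over 25% mitochondrial molecules left 1656. No doublet caller was run. A marker was high where its Poisson tail probability, given the cell's depth and the marker's average, was under 0.05, and a type needed 2 high markers. Molecules were summed by type and pool, and CPM, exact Poisson intervals, exact binomial (Clopper-Pearson) intervals of shares and conditional binomial intervals of ratios were computed (Python 3.11.15, scipy 1.17.1, pandas 2.3.3). The script was tested on simulated data. Shares across depths were thinned to 2000 molecules. Pathway genes called in macrophage-like cells and the 3 most similar genes per member were named. The members and lists were chosen with earlier results of these data known. Alternatives were other cell filters, Leiden clusters (scanpy 1.11.5), a stricter gate, dropping cells of a second gate, thinning, equal weight of cells and TMM scaling (edgeR 4.0.16 in R 4.3.3). Leaving out the highest cell of each group was chosen after seeing the data. Gene positions are from the GRCm38 annotation and promoters from RefSeq. Il3, the 4 cultured macrophage samples (2 untreated and 2 given SAA3) and promoters of other members were not analysed here. A pathway result and a detail of the treatment are not reported here.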

Additional observations from a re-analysis of the deposited data

Results flagged for a closer look

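The Csf1r log2 ratio of the pools (Saa3-/- over wild-type) lay in opposite directions in several cell groups, and none of these differences was tested, since there is 1 pool per genotype. The ratio in macrophage-like cells exceeded that in fibroblast-like cells by 1.27, that in smooth-muscle-like cells by 0.98 and that in B-cell-like cells by 1.15. The smooth-muscle-like ratio itself, -0.88, ran from -1.47 to -0.18 over the alternatives, and the macrophage markers summed in those cells to 809 CPM in the pool labelled wild-type and 538 CPM in the pool labelled Saa3-/-, with 7 of 7 found and 0 at 0 in each. Their part in the result was not tested. The ratio in resident macrophage-like cells exceeded that in lipid-laden cells by 1.05, and lipid-laden minus remaining macrophage-like cells came to -0.98.

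The 275 cells that no gate took enter no comparison between gated cell types, and 226 of them had 1 marker of some type high. They held members above the T-cell-like level, by the following log2 differences. For Csf1r it was 2.55 in the pool labelled wild-type and 2.16 in the pool labelled Saa3-/-. For Csf2ra it was 3.39 and 3.63, for Csf2rb 4.47 and 5.41, and for Csf3r 3.11 and 3.63 in the same order. For Csf1 it was 2.69 in the pool labelled Saa3-/-, where 1 ungated cell held 34 of the 52 molecules and the level without it was 25.2 CPM in place of 69.5. By level, Csf2rb in ungated cells stood above macrophage-like and below dendritic-cell-like cells under both labels. Csf2ra and Csf2rb were counted together in 76 of the 275 ungated cells (27.6%).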

How the results depend on the processing

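With 1 pool per genotype, mouse-to-mouse spread was not measured. No paired analysis was possible because each genotype is 1 pool and no result comes from a test. The Csf1r ratio of the pools in macrophage-like cells (0.10) was 0.24 on thinned cells and positive in all 9 alternatives. The Csf1r level in macrophage-like over T-cell-like and B-cell-like cells (3.47) was 3.81 with clusters, 4.09 without cells passing a second gate, 4.08 thinned, 4.01 with equal weight of cells and 3.67 without the highest cells. The Csf2rb level in dendritic-cell-like over macrophage-like cells (1.74) was 1.43 with clusters and 1.44 thinned. The Csf1 ratio in fibroblast-like cells (0.13) was -0.29 with 1 marker more, 0.57 thinned and -0.31 without the highest cells. The stromal share of Csf1 (77.4%) was 71.7% with clusters, 67.9% thinned and 63.8% with equal weight of cells. Of 384 values of 45 other results under the alternatives, 341 stayed within the counting interval, 38 moved outside it and 5 changed the sign of a call. These 5 were Csf1r in B-cell-like cells without cells passing a second gate (0.44), Csf2ra (0.87) and Tyrobp (0.81) there with clusters, and Cebpb in dendritic-cell-like cells with clusters (-0.034) and without the highest cells (-0.64). Apart from the settings' own construction, the cause was not tested. Clusters put 1288 of 1381 gated cells (93.3%) in the same type, but the clusters typed as dendritic held 86 and 57 cells, of which 21 and 31 were gated so. The clusters were typed by the gate's own markers, which were not left out of the clustering, so the 93.3% is not independent of the gate. The 20 Il34 and 17 Csf2 molecules limit both genes to counts.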

Other observations

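Of other ligands of the same receptor families, Kitl, which encodes stem cell factor, stood over both pools at 188 CPM (17 molecules) in endothelial-like, 73.8 CPM (120) in fibroblast-like, 70.6 CPM (98) in smooth-muscle-like and 45.6 CPM (170) in macrophage-like cells, out of 470 molecules in all kept cells. Flt3l, the ligand of the dendritic-cell growth factor receptor Flt3, had 308 molecules and stood at 65.8 CPM (9 molecules) in type 2 innate lymphoid-like, 54.2 CPM (88) in fibroblast-like, 42.3 CPM (5) in NK-cell-like and 31.5 CPM (56) in T-cell-like cells. Csf3, which encodes G-CSF, had 8 molecules in fibroblast-like cells. Of the receptors that share Csf2rb, Il5ra had 31 molecules in B-cell-like cells (43.5 CPM), and Il3ra had 134 in macrophage-like (36.0 CPM), 55 in fibroblast-like (33.8 CPM) and 8 in mast-cell-like cells (104 CPM).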
